A study of Rattus norvegicus with 145 samples.

Results

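T lymphocytes and natural killer (NK) cells were followed in the liver of acetamide-treated rats through 10 genes that mark them, Cd3d, Cd3e, Cd3g, Cd8a, Cd2, Gzma, Gzmb, Prf1, Nkg7 and Klrd1. The genes were taken by symbol from the 5 deposited count tables, where all 10 were among the 17337 genes listed. Liver RNA from male and female Wistar rats was sequenced after daily gavage with water or acetamide (mkd, mg/kg/day), with 5 rats in each of 29 groups. Experiment A used Hsd:WI males of 9 to 10 weeks, given 0, 30, 100, 300 or 1000 mkd for 7 days and killed on day 8. Experiment B used Crl:WI males and females of 8 to 10 weeks, given 0, 300, 500, 750, 1000 or 1500 mkd for 7 or 28 days and killed on day 8 or day 29. The labels name no genetic change in any rat, and the groups of a table were labelled as differing by dose alone. The control males of day 29 carry the name of the first experiment in a label, while their titles and strain place them in experiment B, where they were kept.

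The proteins of the 10 genes act at successive steps of one kind of response. Cd3d, Cd3e and Cd3g encode the CD3 chains that carry the signal of the T cell receptor into the cell. Cd8a encodes a chain of the coreceptor of cytotoxic T cells, which in the rat is also found on NK cells, and Cd2 encodes an adhesion receptor of T and NK cells. Perforin (Prf1) opens the membrane of a target cell to the serine proteases granzyme A (Gzma) and granzyme B (Gzmb), Nkg7 is a membrane protein of the granules that hold them, and Klrd1 (CD94) is a chain of a receptor with which NK cells read class I molecules. The normal liver holds many such cells in its sinusoids, where they lie beside Kupffer cells. Whole liver was sequenced, so more cells of a type and more RNA per cell cannot be told apart, and since counts were not scaled to gene length, levels are compared between rats and not between genes.

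Promoter sequences are shown for the members whose levels the results turn on, 1 for each step from the receptor to the granule, so that the letters near their starts can be seen beside their values. The RefSeq promoter table of the rat (build GRCr8) matched 9 of the 10 members, and Klrd1 was not matched. The 250 bases before the annotated start of Cd3e, Cd8a, Prf1 and Nkg7 are printed 5′ to 3′ on the strand of the gene. They lie at chr8:54211771-54212020 (minus strand) for Cd3e, chr4:104923866-104924115 (plus strand) for Cd8a, chr20:29788790-29789039 (plus strand) for Prf1 and chr1:102981247-102981496 (plus strand) for Nkg7. Capitals mark matches, on either strand, to the letters GGAAG (the core bound by ETS factors), TGTGGT (RUNX factors), GTGTGA (T-box factors) or TGACGT (part of the site of CREB and ATF factors).
Cd3e: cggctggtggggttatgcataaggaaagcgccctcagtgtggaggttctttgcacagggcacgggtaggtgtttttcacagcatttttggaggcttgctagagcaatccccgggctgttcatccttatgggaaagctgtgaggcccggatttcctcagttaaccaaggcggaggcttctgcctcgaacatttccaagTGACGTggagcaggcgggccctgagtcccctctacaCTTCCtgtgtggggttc
Cd8a: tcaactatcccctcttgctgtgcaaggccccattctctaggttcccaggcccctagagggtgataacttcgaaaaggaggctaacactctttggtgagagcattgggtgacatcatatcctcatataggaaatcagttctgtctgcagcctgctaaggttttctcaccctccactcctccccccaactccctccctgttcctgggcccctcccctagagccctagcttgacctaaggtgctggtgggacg
Prf1: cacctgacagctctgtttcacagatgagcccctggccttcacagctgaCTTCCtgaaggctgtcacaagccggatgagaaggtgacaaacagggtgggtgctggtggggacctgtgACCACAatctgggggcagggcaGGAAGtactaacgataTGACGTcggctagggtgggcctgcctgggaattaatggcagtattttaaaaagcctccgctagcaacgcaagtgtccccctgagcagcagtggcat
Nkg7: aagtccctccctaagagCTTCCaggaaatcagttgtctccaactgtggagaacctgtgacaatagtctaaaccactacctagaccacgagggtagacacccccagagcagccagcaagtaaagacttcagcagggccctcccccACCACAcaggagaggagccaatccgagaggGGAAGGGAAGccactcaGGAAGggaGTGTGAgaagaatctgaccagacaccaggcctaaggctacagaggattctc

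GGAAG was present in 8 of the 9 members' windows and in 63.3% of the 33469 promoters of the table. TGTGGT was present in 5 of 9, all but 1 of them genes of the granule (Gzma, Gzmb, Prf1 and Nkg7, with Cd2 as the other), and in 14.5% of all promoters. GTGTGA was in Gzmb and Nkg7 and in 11.6% of all promoters, and TGACGT in Cd3e, Gzmb and Prf1 and in 6.95%. The Cd8a window held none of these letter strings. In the same annotation Cd3g, Cd3d and Cd3e are direct neighbours on chromosome 8, and Cd3g and Cd3d are read in opposite directions from windows that start at positions 54183919 and 54185269.

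In the 25 vehicle rats of the 5 tables the members were present at low levels. CPM are read counts brought to a common library size with the TMM factors of edgeR, taken within each table. Levels in different tables are therefore not strictly on one scale, and log2 differences between tables came from joint fits. The median CPM was 0.111 for Cd3d (range 0 to 0.245), 0.218 for Cd3e (0.0387 to 0.386), 0.131 for Cd3g (0 to 0.386) and 0.267 for Cd2 (0.0371 to 0.712). The other receptors had 1.87 CPM for Cd8a (0.931 to 4.11) and 0.773 for Klrd1 (0.135 to 1.61). The granule genes had 3.65 CPM for Gzma (1.28 to 6.08), 0.164 for Gzmb (0 to 0.775), 2.76 for Prf1 (1.65 to 6.83) and 1.35 for Nkg7 (0.437 to 2.99). In reads, the median rat of all 5 tables had 4 on Cd3d, 7 on Cd3e, 5 on Cd3g, 10 on Cd2 and 5 on Gzmb, against 51 on Cd8a, 103 on Gzma, 96 on Prf1, 47 on Nkg7 and 23 on Klrd1. A change in the first set is therefore read from few counts, and a small one was not detectable at this depth. Between 15449716 and 39986531 reads per rat fell on genes, with a median of 28262376. The liver identity of the samples was plain, with 10 hepatocyte genes such as albumin summing to between 208684 and 399911 CPM in every vehicle rat.

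The low counts also set which members could be tested. The quasi-likelihood F-test of edgeR was run on genes that passed its filter on low counts, which kept 9 members in experiment A (all but Gzmb). In experiment B it kept 7 in males on day 8 (not Cd3d, Cd3g or Gzmb), 6 in males on day 29 (not Cd3d, Cd3e, Cd3g or Gzmb) and 8 in females on either day (not Cd3d or Cd3g). A member was called where the fold change was at least 1.5 either way and the Benjamini-Hochberg adjusted p, taken over all genes of the comparison, was at most 0.05.

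In experiment A, T and NK cell transcripts rose at 1000 mkd. The members called were 8 of 9, all of them up, where 21.4% of the 11323 genes tested were called in either direction. The 3 CD3 chains, Cd8a, Cd2, Gzma, Prf1 and Nkg7 rose 2.32- to 4.58-fold, and Klrd1 was not called. The median log2 fold change of the members was 1.55, beside 0.00093 for all genes tested. The plot of experiment A by rat shows that the 5 treated rats were not alike.

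**Figure D1:**
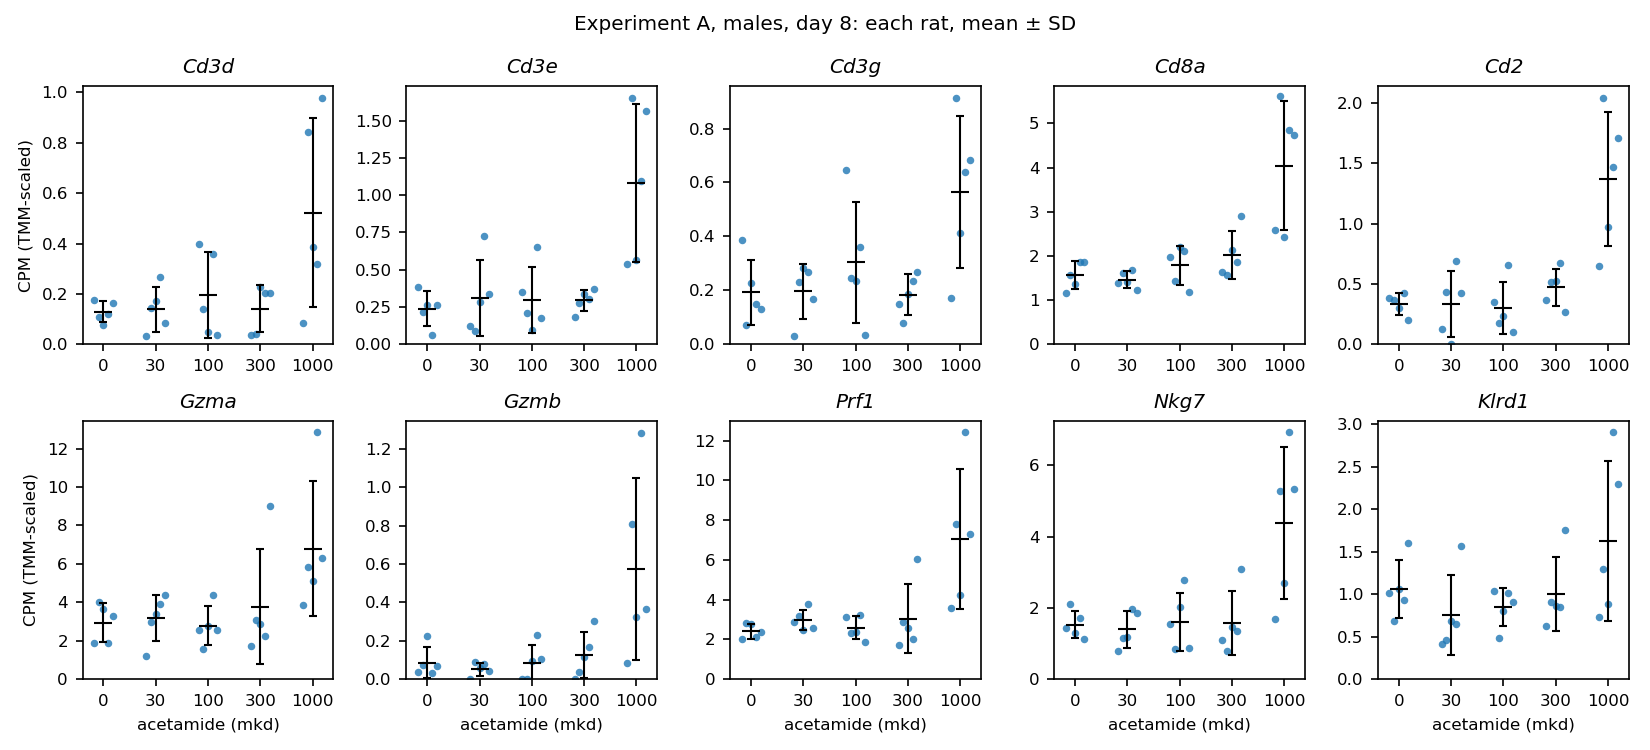
TMM-scaled CPM (y axis, linear, from 0) of the 10 members against the acetamide dose (x axis, mkd, equally spaced groups) in experiment A, males on day 8. Each point is 1 rat, and the dash with bars is the mean ± SD (n = 5). At 1000 mkd, 4 of the 9 members tested (Cd3e, Cd8a, Cd2 and Prf1) have all 5 rats above every vehicle rat, as do 9.01% of the genes tested.

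Cd3e, the CD3 chain with the most reads, had 0.386, 0.218, 0.265, 0.0602 and 0.262 CPM in the 5 vehicle rats and 0.539, 1.65, 0.562, 1.09 and 1.56 CPM in the 5 rats at 1000 mkd. All 5 treated rats were above all vehicle rats, and the log2 fold change was 2.19 (standard error 0.50, adjusted p = 0.00244, edgeR). Cd3d had 0.175, 0.109, 0.0756, 0.120 and 0.164 CPM in vehicle rats and 0.0850, 0.844, 0.384, 0.320 and 0.978 CPM at 1000 mkd. Here 1 treated rat, replicate 1, lay within the vehicle range, and the log2 fold change was 2.00 (standard error 0.60, adjusted p = 0.0144). Cd3g behaved alike, with a mean of 0.193 ± 0.121 (SD, n = 5) in vehicle and 0.565 ± 0.283 CPM in treated rats, 4 of 5 of them above every vehicle rat (log2 fold change 1.55, standard error 0.51, adjusted p = 0.0253).

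Cd8a went from 1.16, 1.56, 1.36, 1.87 and 1.87 CPM in vehicle rats to 2.58, 5.62, 2.42, 4.86 and 4.74 CPM at 1000 mkd. The groups did not overlap, and the log2 fold change was 1.37 (standard error 0.24, adjusted p = 0.000393). This was the smallest adjusted p of the 9 members tested. Cd2 went from 0.386, 0.363, 0.302, 0.421 and 0.197 to 0.652, 2.04, 0.976, 1.47 and 1.71 CPM, again without overlap (log2 fold change 2.03, standard error 0.48, adjusted p = 0.00309).

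Prf1, the pore former, had 2.00, 2.83, 2.76, 2.11 and 2.36 CPM in vehicle rats and 3.57, 7.82, 4.23, 12.4 and 7.28 CPM at 1000 mkd. All treated rats were higher, and the log2 fold change was 1.55 (standard error 0.31, adjusted p = 0.001). Gzma had 1.86, 3.99, 3.67, 1.87 and 3.28 CPM in vehicle rats and 3.85, 5.85, 5.09, 12.8 and 6.31 CPM at 1000 mkd, with 4 treated rats above all vehicle rats and replicate 4 far from the other treated rats (log2 fold change 1.21, standard error 0.41, adjusted p = 0.0287). Nkg7 rose from 1.53 ± 0.389 to 4.39 ± 2.14 CPM (log2 fold change 1.52, standard error 0.39, adjusted p = 0.00592), with 4 of 5 treated rats above every vehicle rat.

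Klrd1, the NK receptor chain, had 1.02, 0.690, 1.06, 0.933 and 1.61 CPM in vehicle rats and 0.737, 1.30, 0.887, 2.91 and 2.30 CPM at 1000 mkd. The groups overlapped in 3 treated rats, and the log2 fold change of 0.61 (standard error 0.38) had an adjusted p of 0.225. Gzmb did not pass the filter. It had 0.0351, 0.0726, 0.227, 0.0301 and 0.0656 CPM in vehicle rats and 0.0850, 0.808, 0.325, 1.28 and 0.367 CPM at 1000 mkd, which is 1 to 6 reads against 3 to 48 reads, and 4 of 5 treated rats were above every vehicle rat. Without the filter its log2 fold change was 2.73 (adjusted p = 0.00886 over 14583 genes, edgeR), a value that rests on few reads in the vehicle group. Granzyme B has close relatives in the rat genome, and how the counting divided reads shared with them is not given in the sources used here.

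Some treated rats were high or low for most members. The summed CPM of the 10 members was 14.0 in replicate 1, 18.0 in replicate 3, 31.3 in replicate 5, 32.1 in replicate 2 and 44.8 in replicate 4, while the vehicle rats lay between 8.84 and 12.0. Replicate 1 was the lowest rat for 9 of the 10 members. Replicate 2 was the highest for Cd3e, Cd3g, Cd8a and Cd2, replicate 5 for Cd3d, and replicate 4 for Gzma, Gzmb, Prf1, Nkg7 and Klrd1, so that the rat highest for Cd8a, Cd2 and a pair of CD3 chains was not the rat highest for the granule genes and Klrd1. Replicates of experiment A are numbered here in the order of their deposition, since their titles skip numbers. Replicate 2 had the highest TMM factor, 1.91. Replicates 4 and 5, also high in the members, had 1.41 and 1.47, and replicates 1 and 3 had 1.12 and 1.06. The vehicle rats had 0.856 to 0.976. Without replicate 2, 6 of 9 members were called, the calls of Cd3d (adjusted p = 0.0500027) and Cd3g (adjusted p = 0.0903) being lost. Over the 10 fits that left out 1 vehicle rat or 1 rat at 1000 mkd, Cd3e, Cd8a, Cd2, Prf1 and Nkg7 were called in each and Cd3d in 9. Gzma was called in 7, and its call was lost without vehicle replicate 1 or 4 and without treated replicate 4 (adjusted p of up to 0.119). Cd3g was called in 6, and its call was also lost without vehicle replicate 2, 4 or 5.

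At 30, 100 and 300 mkd no member was called, in comparisons in which 0% of the genes tested were called (edgeR), and no member had an unadjusted p under 0.05 or was called by DESeq2. The members' log2 fold changes lay between -0.51 and 0.60 at these doses. Replicate 5 at 300 mkd was the exception among the rats, with 9.00 CPM of Gzma where the other 4 had 1.70 to 3.08, and 6.07 CPM of Prf1 where they had 1.70 to 2.88. Over all doses, a linear trend with dose was called (adjusted p of at most 0.05) for 9 of 9 members, where 45.9% of the genes tested had one. With no member called at the lower doses, the trend largely restates the difference at 1000 mkd and is no separate support for it. Slopes lay between 0.89 (Klrd1) and 2.13 (Cd2) on the log2 scale per 1000 mkd.

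Experiment B asked the same of both sexes, at doses up to 1500 mkd and after 7 or 28 days. Over its 20 comparisons of a dose with vehicle, a member was called 3 times, and each of these calls was on day 29. The map of fold changes shows them beside those of experiment A.

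**Figure D2:**
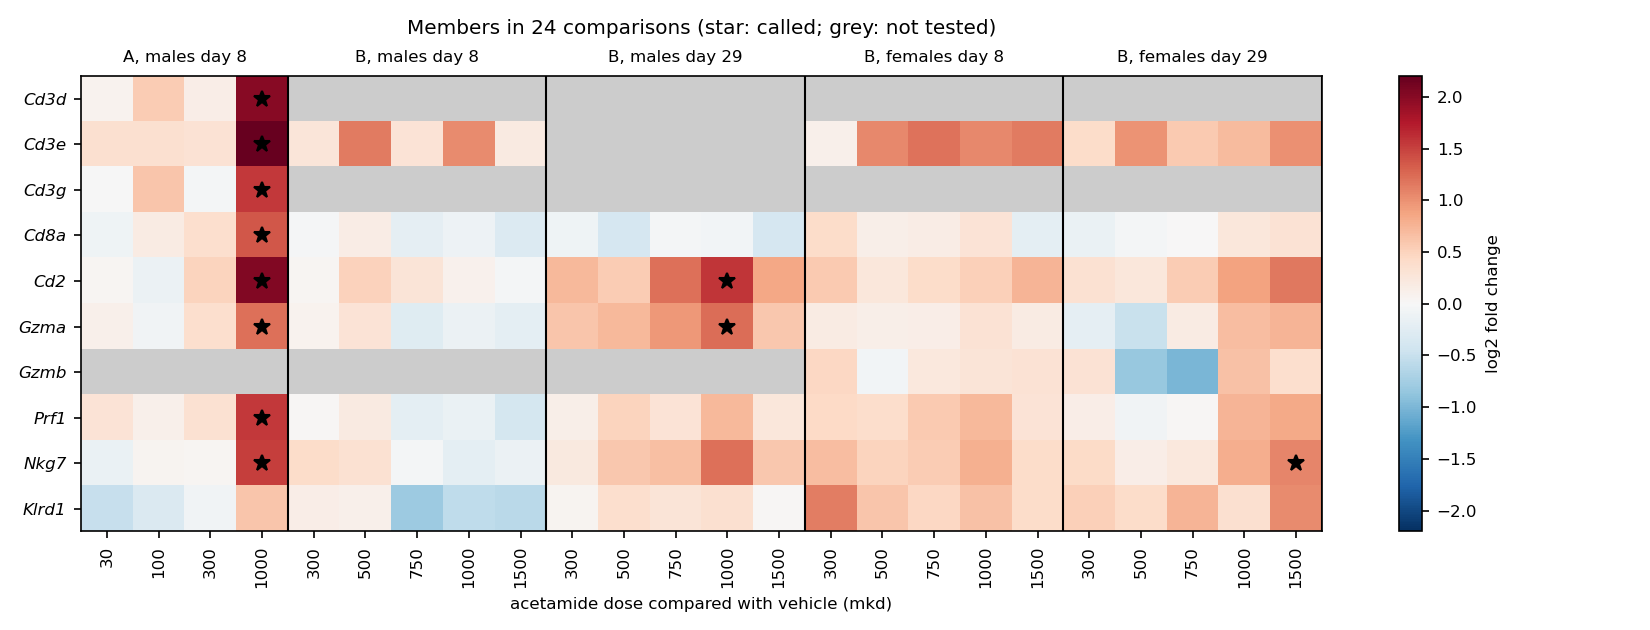
Log2 fold change (colour) of each member (rows) in the 24 comparisons of a dose with the vehicle group of the same table (columns, mkd). A star marks a call and grey a member that did not pass the filter on low counts: 8 stars stand in the column of experiment A at 1000 mkd, 2 in males on day 29 at 1000 mkd and 1 in females on day 29 at 1500 mkd.

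In males on day 8, 0 of 7 members were called at 1500 mkd (edgeR), where 0.177% of the genes tested were, and 0 by DESeq2, with 0 at an unadjusted p under 0.05. The median log2 fold change of the members was -0.22, and 6 of the 7 values were below 0. Prf1 had 2.38, 4.85, 2.57, 4.44 and 4.34 CPM in vehicle rats and 1.03, 4.44, 1.95, 4.15 and 2.55 CPM at 1500 mkd (log2 fold change -0.39, adjusted p = 0.681). The ranges overlapped, with 2 treated rats below every vehicle rat. At 300, 500, 750 and 1000 mkd, where 0% of genes were called at each dose, 0 members were called as well (0 by DESeq2 at each dose, and 0, 1, 0 and 0 at an unadjusted p under 0.05). Their largest value was 1.14 for Cd3e at 500 mkd, to which replicate 2 brought 1.42 CPM while the other 4 rats had 0.126 to 0.448 CPM. A dose trend was called for 0 of 7 members (0 by DESeq2, 1 at an unadjusted p under 0.05), against 2.52% of genes.

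In females on day 8, 0 of 8 members were called at 1500 mkd (edgeR), where 0.705% of genes were, and 0 by DESeq2, with 1 at an unadjusted p under 0.05. All but Cd8a had a log2 fold change above 0, with a median of 0.36 beside -0.0038 for all genes. The highest was Cd3e at 1.14 (adjusted p = 0.399). At 300, 500, 750 and 1000 mkd no member was called, where 0.0087%, 0.0174%, 0.0174% and 1.37% of genes were (0 by DESeq2 at each dose, and 2, 0, 1 and 2 at an unadjusted p under 0.05). Prf1 came closest, at 1000 mkd, with 3.60, 2.73, 3.14, 5.68 and 4.70 CPM in vehicle rats and 9.74, 6.28, 6.36, 4.87 and 5.03 CPM in treated rats. Of the treated rats 3 were above every vehicle rat, and the log2 fold change was 0.71 (adjusted p = 0.123). The untested Cd3d did not overlap at this dose, with 0.0482 to 0.116 CPM in vehicle and 0.138 to 0.615 CPM in treated rats. Of all 17337 genes, 1.3% had every treated rat above every vehicle rat at this dose. A dose trend was called for 0 of 8 members (0 by DESeq2, 1 at an unadjusted p under 0.05), against 5.44% of genes.

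In males on day 29, Cd2 and Gzma were called at 1000 mkd, 2 of 6 members tested, where 2.76% of genes were called. Gzma had 2.12, 2.03, 1.45, 1.28 and 1.86 CPM in vehicle rats, 4.66, 3.62, 4.29, 4.86 and 3.16 CPM at 1000 mkd and 2.79, 2.11, 4.08, 1.65 and 2.53 CPM at 1500 mkd. At 1000 mkd all 5 rats were above every vehicle rat (log2 fold change 1.24, standard error 0.33, adjusted p = 0.0374), and at 1500 mkd 3 were (log2 fold change 0.60, adjusted p = 0.239). Cd2 had 0.243, 0.263, 0.0660, 0.235 and 0.0371 CPM in vehicle rats and 0.630, 0.441, 0.297, 0.751 and 0.457 CPM at 1000 mkd, also without overlap (log2 fold change 1.57, standard error 0.44, adjusted p = 0.0399). All treated rats lay above all vehicle rats for these 2 of the 6 members tested and for 4.59% of the genes tested. Nkg7 was above the vehicle range in 4 of 5 rats at this dose but was not called (log2 fold change 1.21, adjusted p = 0.0662), and Cd8a was at 1.72 ± 0.534 CPM (SD, n = 5) in vehicle and 1.65 ± 0.145 CPM in treated rats (log2 fold change -0.06, adjusted p = 0.905).

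The day 29 calls in males were near the threshold. In the vehicle males of day 29, Gzma (1.75 CPM, against 3.69 CPM in vehicle males of day 8) and the other 9 members were lower than on day 8. None of these differences between the days was called (edgeR, adjusted p of 0.258 to 0.968), and their part in the calls was not tested. Of the 10 fits that left out 1 rat of the 2 groups, Gzma was called in 3 and Cd2 in 1. DESeq2 called Gzma and Nkg7. At 1500 mkd, 0 of 6 members were called (edgeR, and 0 by DESeq2), with 0 at an unadjusted p under 0.05, where 4.91% of genes were called. There replicate 3 was the highest rat for 8 of the 10 members, with a sum of 16.0 CPM over the members where the other 4 rats had 5.31 to 9.43. Its TMM factor of 1.49 was the highest of the table. By its title it is the rat that the authors found to be an outlier for a cell proliferation marker. They left it out of their benchmark dose modelling of that marker. Without this rat the log2 fold change of Prf1 went from 0.25 to -0.19, that of Klrd1 from 0.02 to -0.50 and that of Nkg7 from 0.59 to 0.13. At 300, 500 and 750 mkd no member was called, where 0%, 0% and 0.78% of genes were, though Gzma at 300 mkd (2.15 to 3.89 CPM) lay above every vehicle rat, as did 1.46% of the genes tested. DESeq2 called 0 members at these doses, and 0, 1 and 2 had an unadjusted p under 0.05. A trend was called for 0 of 6 members (0 by DESeq2, 2 at an unadjusted p under 0.05), against 24.5% of genes.

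In females on day 29, Nkg7 was the member called at the highest dose, and its values and those of several other members lay close to the threshold. At 1500 mkd, 1 of 8 members, Nkg7, was called, where 13.1% of genes were, a share no lower than that of the members, and all 8 had a log2 fold change above 0 with a median of 0.91, beside -0.0018 for all genes. Nkg7 had 0.817, 1.77, 2.89, 2.12 and 1.16 CPM in vehicle rats and 5.06, 4.21, 4.29, 2.16 and 2.72 CPM at 1500 mkd. Of the treated rats 3 were above every vehicle rat (log2 fold change 1.08, standard error 0.36, adjusted p = 0.0358). Gzma, with 3.11, 4.23, 6.08, 4.81 and 3.88 CPM in vehicle rats and 9.14, 5.51, 8.37, 7.18 and 6.89 CPM at 1500 mkd, had 4 of 5 rats above them (log2 fold change 0.75, standard error 0.27, adjusted p = 0.0522). Cd2 at 1.16 (adjusted p = 0.0557), Klrd1 at 1.04 (adjusted p = 0.0604) and Prf1 at 0.83 (adjusted p = 0.108) were not called. Cd8a, at 0.32 (adjusted p = 0.5), and Gzmb, at 0.38 (adjusted p = 0.682), had the smallest values. The untested Cd3g was at 0.124 ± 0.071 CPM in vehicle and 0.359 ± 0.132 CPM in treated rats, all 5 of them above every vehicle rat, as was so for 2.58% of all genes.

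**Figure D3:**
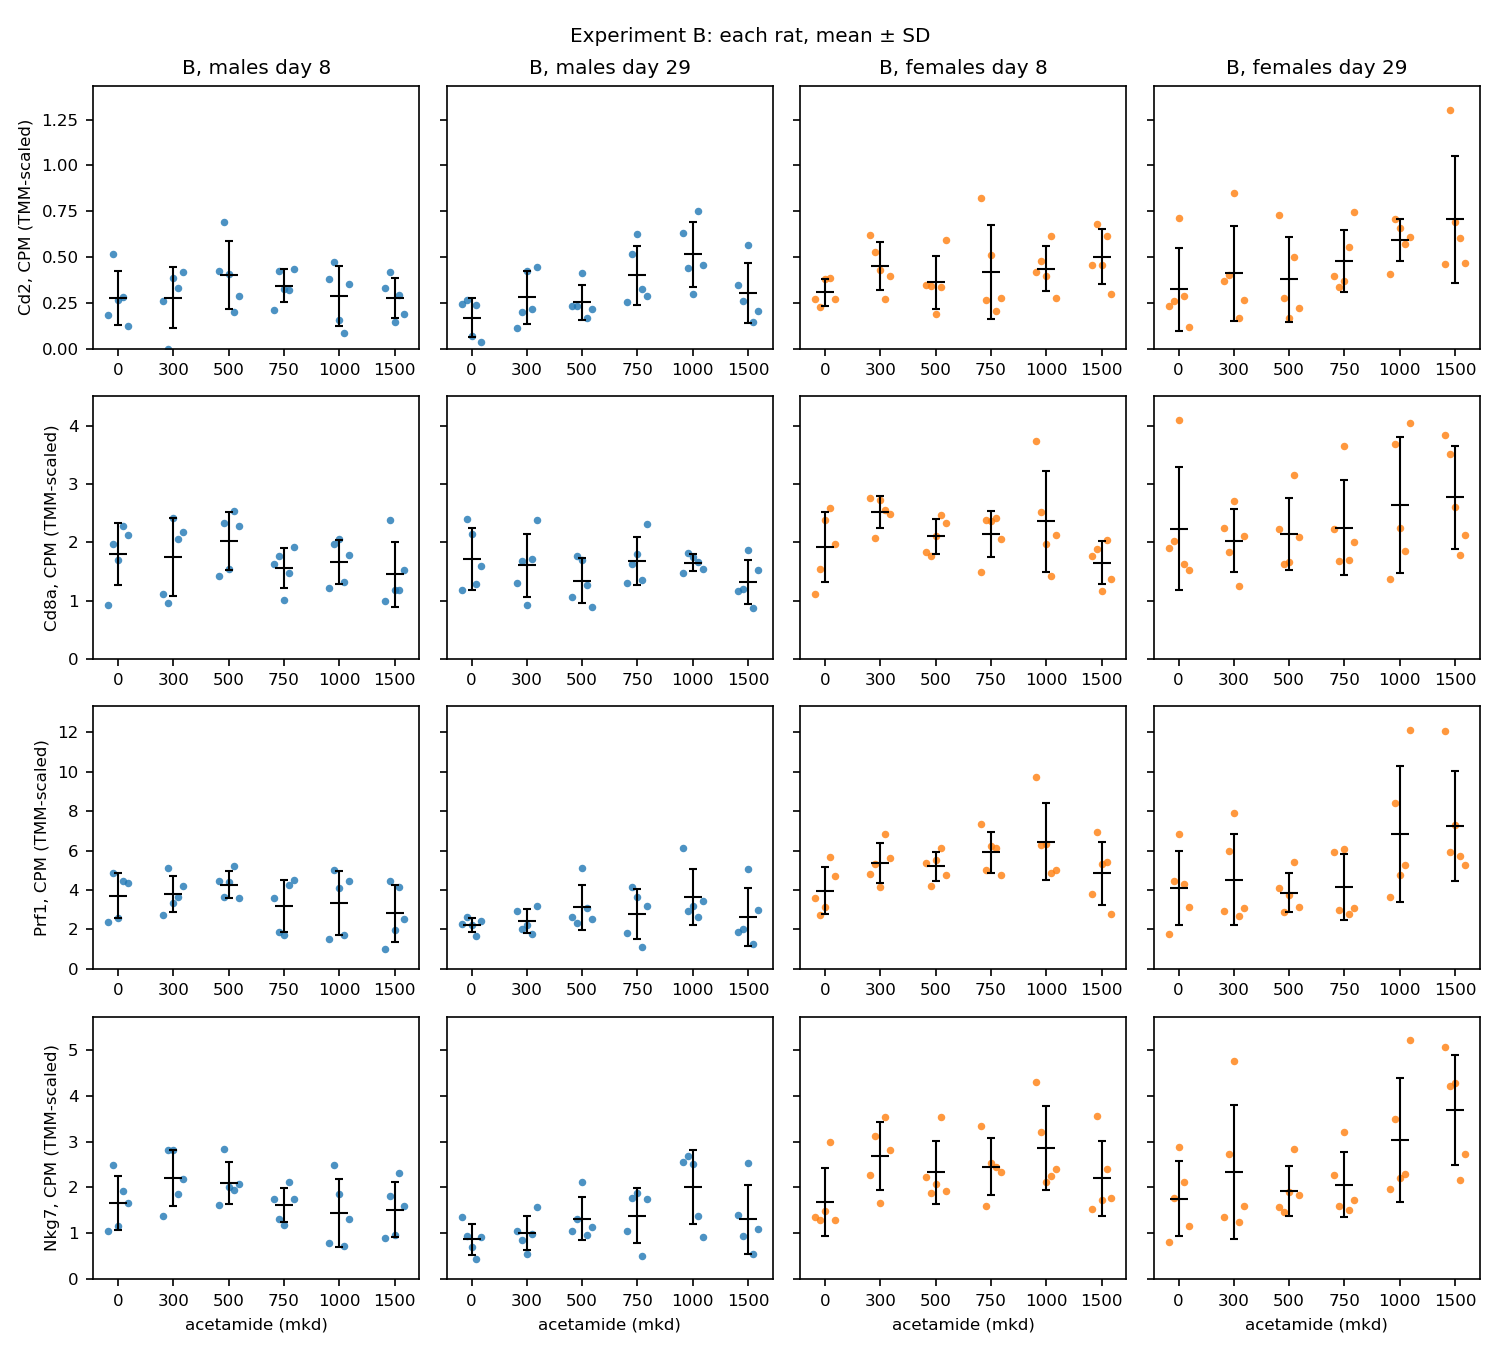
TMM-scaled CPM (y axis, linear, from 0, shared along a row) of Cd2, Cd8a, Prf1 and Nkg7 (rows) against the acetamide dose (x axis, mkd, equally spaced groups) in the 4 tables of experiment B (columns; males blue, females orange). Each point is 1 rat, and the dash with bars is the mean ± SD (n = 5). The treated and vehicle ranges overlap in most panels, and Nkg7 in females on day 29 goes from 1.75 ± 0.815 in vehicle rats to 3.69 ± 1.20 CPM at 1500 mkd.

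How many members passed at 1500 mkd in these females depended on the fit. Of the 10 fits that left out 1 rat of the 2 groups, Nkg7 was called in 3, those without vehicle replicate 3 and without treated replicate 4 or 5, and in the others its adjusted p went up to 0.0982. DESeq2 called 4 of 8 (Cd2, Gzma, Nkg7 and Klrd1), and the fits that left out 1 rat called 0 to 5. The 5 came without replicate 3 of the vehicle group, which had the highest Cd8a (4.11 CPM), Cd2 (0.712 CPM), Gzma (6.08 CPM), Prf1 (6.83 CPM), Nkg7 (2.89 CPM) and Klrd1 (1.05 CPM) of the 5 vehicle rats. At 300, 500, 750 and 1000 mkd no member was called, where 0%, 0.0349%, 0.183% and 1.59% of genes were (0 by DESeq2 at each dose, and 0, 0, 0 and 3 at an unadjusted p under 0.05). A dose trend was called for 4 of 8 members, Cd2, Gzma, Prf1 and Nkg7, against 27.3% of genes, with slopes of 0.63 to 0.78 on the log2 scale per 1000 mkd. The fits that left out a replicate number called it for 2 to 6 members, Gzma in each, and on a scale of log2(dose + 30 mkd) it was called for 0.

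The response of the members was compared directly between experiments, sexes and days as an interaction in edgeR. At 1000 mkd on day 8, the dose given to males in both experiments, the response was larger in experiment A for all 10 members, and the difference was called for Cd8a, Gzmb, Prf1 and Nkg7, 4 of 10, where 7.48% of genes were called. It was 1.47 on the log2 scale for Cd8a (standard error 0.37, adjusted p = 0.0139), 1.69 for Prf1 (standard error 0.48, adjusted p = 0.024), 1.73 for Nkg7 (standard error 0.50, adjusted p = 0.0287) and 3.46 for Gzmb (standard error 0.90, adjusted p = 0.016). The Gzmb value rests on few reads, and in experiment B its level went from 0.265 to 0.155 CPM. Cd2 differed by 1.94 (standard error 0.67, adjusted p = 0.0631) and the CD3 chains by 1.00 to 1.63 (adjusted p of 0.219 to 0.468). Without replicate 4 or without replicate 5 of every group, 0 of 10 differences were called. Strain and experiment cannot be told apart in this comparison. Before treatment Gzmb was at 0.0861 ± 0.0809 CPM (SD, n = 5) in experiment A and at 0.265 ± 0.0661 CPM in experiment B, a log2 difference of -1.55 (standard error 0.69, adjusted p = 0.226) that enters its interaction.

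Between the sexes, 0 of 10 members differed in their response to 1500 mkd on day 8 (0% of genes) or on day 29 (0.466% of genes), by edgeR and by DESeq2, with 0 at an unadjusted p under 0.05. The estimated response was larger in females for 10 of 10 members on day 8, by 0.09 to 1.38 on the log2 scale (standard errors of 0.39 to 0.85), and for 9 of 10 on day 29, by up to 1.17. Members are read from the same rats, so here as elsewhere a shared direction is not a count of independent results. For Nkg7 on day 29 the difference was 0.53 with a standard error of 0.49 (adjusted p = 0.617). Between the days, 0 of 10 members differed in males (0% of genes) or in females (0.0169% of genes), again with 0 by DESeq2 and 0 at an unadjusted p under 0.05. Nkg7 differed by 0.69 in either sex, with standard errors of 0.50 in males and 0.48 in females.

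In the vehicle rats of experiment B, 1 member differed between the tables of males and females. Each sex and day is a table of its own, so an effect of the table cannot be told apart from sex or day here. On day 29 Gzma was higher in females, at 4.42 ± 1.11 (SD, n = 5) against 1.75 ± 0.366 CPM in males (edgeR, log2 difference 1.22, standard error 0.32, adjusted p = 0.00314). This was 1 of 10 members, where 12.1% of genes were called between the sexes on day 29. On day 8, where 8% of genes were called, 0 of 10 members were (edgeR and DESeq2, 0 at an unadjusted p under 0.05). The vehicle males of day 29 were lower than those of day 8 for all 10 members, with Gzma at 1.75 against 3.69 CPM, Prf1 at 2.24 against 3.72 CPM and Nkg7 at 0.871 against 1.66 CPM. None of these differences was called (edgeR, adjusted p of 0.258 to 0.968, and 0 by DESeq2; 0.0169% of genes), though 5 had an unadjusted p under 0.05. In females, 0 of 10 members differed between the days (0 at an unadjusted p under 0.05, 0 by DESeq2), where 1.25% of genes were called.

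Lists of other genes of T and NK cells held calls in experiment A as well, to be set beside the 21.4% of all genes called at 1000 mkd. In experiment A at 1000 mkd, 11 of 14 tested genes of T cell receptor signalling were called, all up, with a median log2 fold change of 1.19. Among them were Cd27, a costimulatory receptor, at 1.73 (adjusted p = 0.00338) and Cd6, a T cell adhesion receptor, at 1.55 (adjusted p = 0.00622). Of the NK receptor list 4 of 12 were called, led by Klrk1 (NKG2D, an activating receptor), which went from 2.35 ± 1.16 to 14.5 ± 8.23 CPM, and Cd244, which went from 1.01 ± 0.220 to 3.70 ± 2.53 CPM. Of other cytotoxic effectors 6 of 7 were called, led by the granzymes Gzmk and Gzmm, and of lymphocyte transcription factors 4 of 5, led by Runx3 and Ikzf1. Of chemokines and homing receptors 11 of 15 were called, led by the chemokines Ccl4 at 1.98 (adjusted p = 0.0108) and Ccl3 at 1.81 (adjusted p = 0.00396), and of checkpoint receptors 2 of 8, Icos and Tnfrsf18. The share of checkpoint receptors was near that of all genes.

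**Figure D4:**
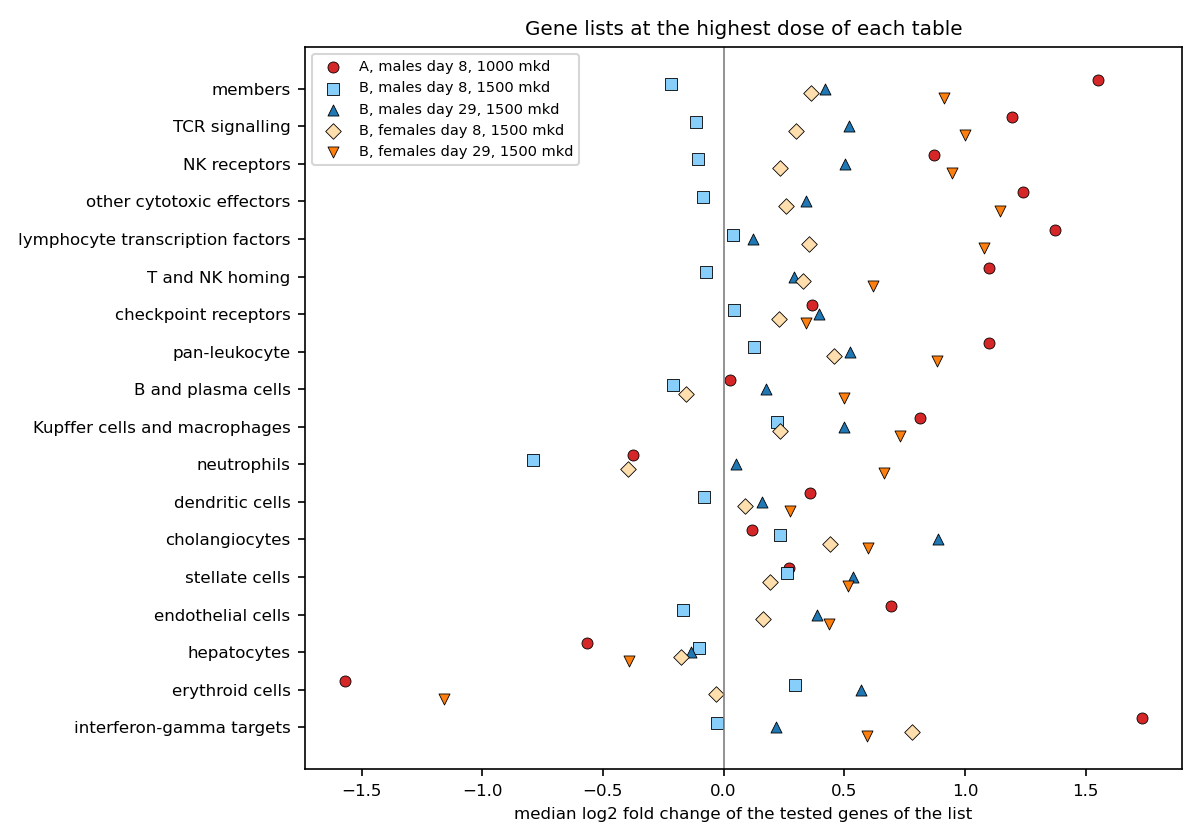
Median log2 fold change (x axis) of the tested genes of each list (y axis) at the highest dose of each table against its vehicle group, with 1 symbol per table. The members lie at 1.55 in experiment A and at 0.91 in females on day 29, while in males on day 8 they lie at -0.22; B and plasma cell genes lie at 0.03 in experiment A.

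Markers of some other leukocytes moved at the same time, where 14% of all genes tested were called up and 7.45% down. In experiment A at 1000 mkd, 9 of 10 pan-leukocyte genes were called up, among them Ptprc (CD45), from 13.3 ± 2.94 to 41.3 ± 15.9 CPM, and Lcp1, and the summed list went from 97.9 to 163 CPM in vehicle rats to 211 to 400 CPM. Of 11 Kupffer cell and macrophage genes 7 were called up, led by Cd68 at 1.61 (adjusted p = 0.000141) and Cd163 at 1.18 (adjusted p = 0.000254). Of 7 tested B and plasma cell genes 0 were called, with a median of 0.03 and a summed level of 8.14 to 12.8 CPM in vehicle and 10.9 to 19.4 CPM in treated rats. Of 5 neutrophil genes 2 were called down, S100a8 at -1.82 and S100a9 at -1.74, and Itgam, an integrin chain that macrophages and NK cells also carry, was called up, from 3.31 ± 1.23 to 9.38 ± 5.30 CPM. Of dendritic cell genes 1 of 6 was called up (Irf8), of endothelial genes 4 of 6 (led by Cdh5 and Lyve1), of stellate cell genes 1 of 9 (Pdgfrb) and of cholangiocyte genes 0 of 4. The shares of dendritic and stellate cell genes were near the share of all genes called up.

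Some parenchymal and red cell transcripts fell, where 7.45% of all genes tested were called down. Of 10 hepatocyte genes 4 were called down, led by Ttr at -0.98 and Alb at -0.91, with the summed list at 269784 to 358308 CPM in vehicle rats and 86474.5 to 265138 CPM at 1000 mkd. Of 6 erythroid genes 3 were called down, led by Alas2 at -2.39 and Hbb at -2.30. Targets of interferon gamma, the cytokine that activated T and NK cells release, were called up in 8 of 11, led by Gbp4 at 5.31 (adjusted p = 0.000309) and Cxcl10, a chemokine for T and NK cells, at 4.21 (adjusted p = 0.0002). Whether interferon gamma itself raised these genes was not tested. Gbp4 varied from rat to rat, at 52.6 ± 82.7 CPM in treated rats. The part of these other cells and of the fall of hepatocyte RNA in the members' rise was not tested. Scaled by library totals alone, the median of all genes at 1000 mkd shifted to 0.58 and 46.7% of genes were called. The 8 called members lay 1.24 to 2.28 above that median, and Klrd1 was called as well, 0.65 above it.

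In females on day 29 at 1500 mkd, calls in the leukocyte lists were up, where 13.1% of all genes were called in either direction. T cell receptor signalling genes were called in 7 of 14, led by Cd27 at 2.04 (adjusted p = 0.00293) and Cd5, an inhibitory receptor of T cells, at 1.62 (adjusted p = 0.0168), with a median of 1.00. NK receptors were called in 4 of 13 (led by Cd244 and Klrk1), other cytotoxic effectors in 4 of 7 (Stx11 and Gzmm), transcription factors in 3 of 6 (Runx3 and Ikzf1), homing genes in 5 of 15 (Cx3cr1 and Itgal) and checkpoint receptors in 1 of 7 (Icos), the last a share near that of all genes. Gzmm went from 1.27 ± 0.494 to 3.41 ± 0.314 CPM with all treated rats above all vehicle rats, as did 402 of the 11451 genes tested. Pan-leukocyte genes were called in 9 of 10 (Ptprc and Cd53), Kupffer cell genes in 4 of 11 (Cd68 and Cd163), B and plasma cell genes in 0 of 6 and interferon gamma targets in 4 of 11 (led by Gbp4 and Gbp5). Neutrophil, dendritic cell and cholangiocyte genes had 1 call each (Csf3r, Irf8 and Sox9), stellate and endothelial genes 2 each (Dcn and Pdgfrb, Cdh5 and Lyve1), all up. These lists held 9, 6, 4, 9 and 6 genes, in that order, before the filter on low counts. In lists of this size 1 or 2 calls say little beside the 13.1% of all genes. Erythroid genes were called down in 3 of 6 (led by Slc4a1 and Alas2), hepatocyte genes Alb and Cps1 were called down, and Apoa1 was called up.

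In the other 3 tables, few genes of these lists were called at the highest dose. Of all genes tested, 0.177% were called in males on day 8, 4.91% in males on day 29 and 0.705% in females on day 8. At shares as low as those of day 8, the counts say little about the lists. Males on day 8 had 0 calls over the 17 lists other than the members, males on day 29 had 2 (Cftr of the cholangiocyte list, up, and Apob of the hepatocyte list, down) and females on day 8 had 1 (Gbp4, up). The list medians of T cell receptor signalling were -0.11, 0.52 and 0.30 there, in the same order, beside medians over all genes of -0.0039, 0.07 and -0.0038.

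Within a dose group, rats rich in one member tended to be rich in others. Over the rats of all 29 groups, after subtraction of the mean of each group, Spearman correlations of log2 CPM between pairs of members lay between 0.18 and 0.78, with a median of 0.34 over the 45 pairs. The highest were among the granule genes, Prf1 with Nkg7 at 0.78, Gzma with Prf1 at 0.75 and Gzma with Nkg7 at 0.74. The 3 pairs of CD3 chains had 0.45 to 0.55, and the 15 pairs of a CD3 chain with a granule gene or Klrd1 had 0.18 to 0.44. These values are descriptions, since members of a rat share a library and its depth, and the CD3 chains and Gzmb have few reads.

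**Figure D5:**
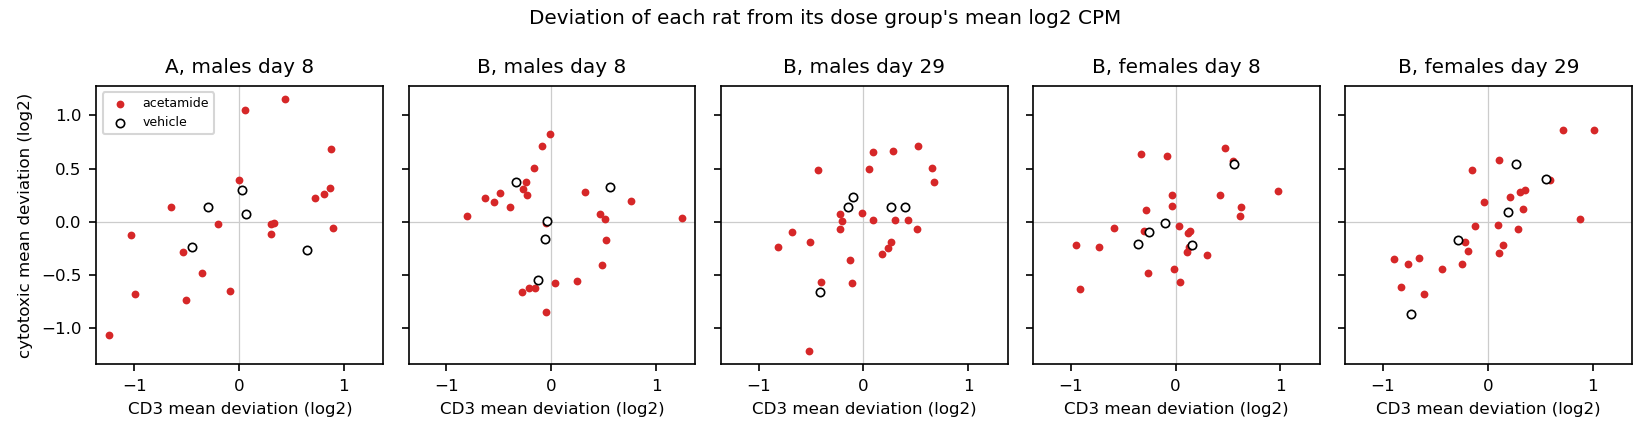
Each rat's deviation from the mean of its dose group in the mean log2 CPM of Cd3d, Cd3e and Cd3g (x axis) and in that of Gzma, Gzmb, Prf1, Nkg7 and Klrd1 (y axis), 1 panel per table, with vehicle rats as open and treated rats as red points. The points rise together most closely in females on day 29, where Pearson's r is 0.80 (n = 30), and show no common direction in males on day 8, where it is -0.07 (n = 30).

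The mean of the 3 CD3 chains and the mean of Gzma, Gzmb, Prf1, Nkg7 and Klrd1 had a Pearson's r of 0.46 and a Spearman's rho of 0.45 over the rats of all 29 groups, and r was 0.45 without the 2 rats farthest from the median of the CD3 mean. By table, r was 0.56 in experiment A (n = 25), 0.50 in males (n = 30) and 0.80 in females (n = 30) on day 29, and 0.45 in females on day 8 (n = 30), but -0.07 in males on day 8 (n = 30). Of the 10155 other genes with a mean of at least 1 CPM, those most like the CD3 mean over all rats were Il2rg (the shared chain of several cytokine receptors, Spearman's rho 0.59), Lck (the kinase that phosphorylates the CD3 chains, 0.58), Evl (0.55), Adcy7 (0.55) and Adam19 (0.55). Those most like the mean of the granule genes and Klrd1 were the chemokine Ccl5 (0.81), the granzyme Gzmm (0.78), Ptprc (0.76), Plac8 (0.75) and Cd48 (0.74). These are the highest of many correlations and carry no test.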

How the data were processed

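Liver (left lobe) RNA of 5 rats in each of 29 groups was sequenced with a stranded mRNA library kit. The authors trimmed the reads with Trimmomatic, aligned them to the rat genome Rn6 with Bowtie2 and counted them on its gene models with HTSeq, and deposited the raw counts per gene in 5 tables. Tool versions and the strand setting of the counting are not given in the sources used here. Rows of HTSeq that name no gene, 35.5 to 67.1% of the reads of a rat in experiment B, were left out. Between 15449716 and 39986531 reads per rat remained, and a member with few of them carries a large counting error.

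Groups were taken from the labels. In edgeR 4.0.16 (R 4.3.3, limma 3.58.1), genes were filtered with filterByExpr and scaled by TMM, and all dose groups of a table entered 1 quasi-likelihood fit. Calls needed a change of 1.5-fold or more in either direction together with an adjusted p (Benjamini-Hochberg, over every gene tested) no higher than 0.05. Trends and differences between responses were called at the same adjusted p with no fold threshold. Differences between responses came from fits over all groups of experiment B, or of both day 8 male tables, where table, sex and day, or table, strain and experiment, coincide. Rats of experiment A, whose titles skip numbers, were numbered in order of deposition, which pairs none of them. Nothing says how rats with the same replicate number relate, so p-values measure the spread between the sampled rats. Over tables, the median correlation of same-numbered rats of different doses was -0.023 to 0.027 (by the titles in experiment A, -0.0040), and the numbers were not taken as pairs.

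Named genes were the 10 members, up to 2 called genes per list with the largest change at the highest dose of a table, and the 5 genes most like the CD3 mean and the 5 most like the granule gene mean, of those with a mean of at least 1 CPM. Itgam and Cps1, and Gzmm where its levels are given, were named after their values were seen. The members and lists were chosen with earlier results of these data known. A planned permutation p for the likeness of the 2 means is not given, since it would be a p for a score over chosen members. Alternatives were DESeq2 1.42.0, its size factors, other filters, the replicate block, other dose scales and leaving out rats. Scripts were tested on simulated data.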

Additional observations from a re-analysis of the deposited data

Results flagged for a closer look

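Each of the 10 members was examined in each of the 29 dose groups of 5 rats, and in 29 of these 290 sets 1 rat lay far from the other 4 by Dixon's criterion (a gap of more than 0.71 of the range). Nearly all of these rats lay on the high side. The criterion picks about 1 set in 20 of normally distributed values. CPM that rest on few reads are not so distributed, so this rate cannot show an excess here. Members of a rat share a library, so that the sets are not independent. In experiment A, replicate 5 at 300 mkd was such a rat for 3 members, with 9.00 CPM of Gzma (next 3.08), 6.07 CPM of Prf1 (next 2.88) and 1.75 CPM of Klrd1 (next 0.908). Replicate 4 at 1000 mkd had 12.8 CPM of Gzma (next 6.31), replicate 5 at 30 mkd had 1.57 CPM of Klrd1 (next 0.679), and vehicle replicate 3 had 0.227 CPM of Gzmb, from 6 reads.

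In males of experiment B on day 8, replicate 2 at 500 mkd had 1.42 CPM of Cd3e (next 0.448) and replicate 5 at 1000 mkd had 0.296 CPM of Cd3d (next 0.109). In males on day 29, replicate 3 at 500 mkd was far from the others for 3 members, with 0.415 CPM of Cd2 (next 0.233), 5.11 CPM of Prf1 (next 3.08) and 1.61 CPM of Klrd1 (next 0.609). At 300 mkd replicate 5 had 3.89 CPM of Gzma (next 2.59), and at 750 mkd replicate 5 had 0.528 CPM of Cd3e (next 0.234). At 1000 mkd replicate 4 had 0.474 CPM of Cd3e (next 0.281) and replicate 1 had 6.13 CPM of Prf1 (next 3.45).

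In females on day 8, vehicle replicate 4 had 2.99 CPM of Nkg7 (next 1.49). Replicate 4 at 500 mkd had 6.69 CPM of Gzma (next 4.83) and 3.55 CPM of Nkg7 (next 2.22), replicate 1 at 750 mkd had 7.52 CPM of Gzma (next 4.68), and replicate 2 at 1000 mkd had 0.615 CPM of Cd3d (next 0.215). Among the vehicle females of day 29, replicate 3 had 4.11 CPM of Cd8a (next 2.03) and 0.712 CPM of Cd2 (next 0.285), replicate 4 had 0.775 CPM of Gzmb (next 0.200) and replicate 1 had 0 reads of Cd3g. At 750 mkd in these females, replicate 2 had 0.472 CPM of Cd3e (next 0.316) and 0.236 CPM of Gzmb (next 0.122), and replicate 3 had 3.66 CPM of Cd8a (next 2.23). Replicate 5 at 1000 mkd had 0.575 CPM of Cd3g (next 0.257), and replicate 2 at 1500 mkd had 1.30 CPM of Cd2 (next 0.693).

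The response to 1000 mkd of males on day 8 differed between the experiments by the interaction test for 4 members, larger in experiment A by 1.47 on the log2 scale for Cd8a, 1.69 for Prf1, 1.73 for Nkg7 and 3.46 for Gzmb.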

How the results depend on the processing

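In experiment A at 1000 mkd, 6 to 9 of the members were called when a rat was left out, and 4 with at least 10 counts required in every rat, where fewer members were tested; its trend was called for 7 to 10 and for 5. In females on day 29 at 1500 mkd, 1 member was called, against 4 by DESeq2, 2 each without the filter (Cd3g and Nkg7), with at least 10 counts and with the replicate block (Gzma and Nkg7), 6 with library totals without TMM, 0 with the control and the tested dose alone, and 0 to 5 without 1 rat. Its trend went from 4 members to 7 with library totals, 0 with log2(dose + 30 mkd) and 2 to 6 without a replicate number. The trend in males on day 29 went from 0 to 3 with library totals and 2 with log2(dose + 30 mkd). Of the lower doses 2 calls were made, 1 with at least 10 counts, 3 with the replicate block (Nkg7 added) and 0 to 2 without a replicate number. The difference between experiments was called for 0 to 5 members and that of vehicle controls for 1 to 2 without a replicate number, and other counts stayed at 0. Library totals were chosen after seeing the data. Where not shown by fewer genes or rats, the cause was not tested.

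The replicate number used as a block left the other counts of experiment B as they were. In experiment A the numbers in the titles served as the block, a choice made after seeing the data, with 5 members called at 1000 mkd (the calls of Cd3d, Cd3g and Gzma lost), 9 with a trend and 3 that differed between experiments. Of the rats, 2 to 9 per table correlated best with their own number, 5 of 25 in experiment A by its titles. No block was fitted for vehicle controls, which compare tables.

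Values that changed sign were uncalled. At 1500 mkd in males on day 8, leaving out 1 rat gave -0.34 to 0.42 for Cd3e, -0.24 to 0.35 for Cd2 and -0.32 to 0.083 for Nkg7, and library totals gave 0.094 for Cd2 and 0.016 for Nkg7. In males on day 29, Cd8a at 1000 mkd was 0.000405 with library totals and -0.22 to 0.090 without 1 rat. At 1500 mkd Prf1 was -0.19 (without replicate 3) to 0.42, and Klrd1 -0.50 to 0.25, without 1 rat. Klrd1 was -0.019 by DESeq2, -0.010 with its size factors, -0.048 without the filter, -0.0078 with the replicate block and -0.022 with the control and the tested dose alone. In females on day 8, Cd8a was 0.0041 with library totals and Gzma -0.055 to 0.38 without 1 rat. The likeness of the CD3 and granule means was 0.59 in vehicle rats alone.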

Other observations

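Several genes of T cell receptor signalling that the report gives only as counts moved with the members, and are named here after their values were seen. Lcp2 (SLP-76), an adaptor below the receptor that is also used by other leukocytes, went from 5.15 ± 0.786 (SD, n = 5) to 14.4 ± 5.00 CPM in experiment A at 1000 mkd and from 6.75 ± 0.940 to 14.1 ± 4.18 CPM in females on day 29 at 1500 mkd. In both tables all 5 treated rats were above every vehicle rat. The same held for 9.01% of the genes tested in experiment A and for 402 of the 11451 tested in females on day 29. Zap70, the kinase that binds the activated CD3 chains, went from 0.709 ± 0.124 to 1.74 ± 0.629 CPM in experiment A, again with all 5 treated rats above every vehicle rat. Cd4, which rat macrophages carry as well as helper T cells, went from 20.5 ± 1.91 to 36.0 ± 12.2 CPM in experiment A and from 23.3 ± 8.76 to 43.1 ± 10.9 CPM in females on day 29, with 4 of 5 treated rats above every vehicle rat in each.

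Il2rb, a receptor chain for interleukins 2 and 15 on NK and T cells, went from 5.64 ± 0.709 to 11.0 ± 3.31 CPM in experiment A, and Tbx21 (T-bet), a transcription factor of both cell types, from 1.40 ± 0.248 to 2.93 ± 1.05 CPM, with all 5 treated rats above every vehicle rat for both genes. Of all genes tested in experiment A, 9.01% were so placed. Il2rb, Tbx21 and Zap70 are given here for experiment A only.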
